A study of Rattus norvegicus with 12 samples.

Results

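Of 10 genes of iron handling sought by symbol in a table of rat liver RNA sequencing, 9 were found. They were HAMP (hepcidin), TF (transferrin), TFR2, HFE, HFE2 (hemojuvelin), SLC40A1 (ferroportin), SLC39A14 (ZIP14), FTH1 (ferritin heavy chain) and CP (ceruloplasmin). TFRC was not found among the genes with a value above 0 and was skipped. The table held 14692 genes, of which 12388 were above 0 in at least 1 column. All 9 genes had a mean of at least 1 RPKM (reads scaled to transcript length and library size) and so entered the fits, with 8459 genes in all. The rule was the gene name alone.

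Iron leaves cells through ferroportin, and hepcidin, a peptide hormone made mainly by hepatocytes, binds ferroportin and causes its degradation, so that less iron enters the blood. Hepatocytes make more hepcidin when BMP signalling acts through the co-receptor hemojuvelin and SMAD proteins, when HFE and transferrin receptor 2 register iron-loaded transferrin, and when IL-6 activates STAT3 in inflammation. The liver is also the main source of plasma transferrin and ceruloplasmin and a main site of iron storage in ferritin. Loss of hepcidin, hemojuvelin, HFE or transferrin receptor 2 causes hereditary iron overload.

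Liver was sampled after 2/3 partial hepatectomy (PH), which removes most of the liver and starts regrowth. The question was what bile acid flux contributes to it. Male Sprague Dawley rats of 4 to 5 months had a sham operation (Control), or a biliary fistula that drained bile from the body. The fistula was placed 24 h before PH, and liver was taken 0, 4, 12 and 24 h after PH. In 1 fistula arm sodium taurocholate, a bile acid, was infused into the duodenum at 0.5 mg per g of body weight a day, starting 12 h before PH. All rats, Control included, carried a duodenal catheter with a continuous saline infusion, so that no column shows an unoperated liver. The infusion returned 1 bile acid and no other part of bile.

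Each of the 12 combinations of arm and time had 1 column, in which the authors averaged a run on 1 rat with a run on combined RNA of 3 rats. A value thus covers 4 rats but shows no spread between them. The fistula arms are named here BF and BA after the column labels, where BA stands for fistula with infusion in the study's own naming. The longer sample descriptions give the infusion to the columns labelled BF and no bile to those labelled BA. CYP7A1, the rate-limiting enzyme of bile acid synthesis, is known to be repressed by bile acids that return to the liver. At 0, 4, 12 and 24 h it stood at 387, 13.8, 136 and 334 RPKM in BF, at 54.9, 1.81, 3.17 and 68.8 RPKM in BA and at 60.0, 4.59, 8.53 and 57.3 RPKM in Control. It was thus highest in BF at 4 of 4 times, by 2.61 against Control on the log2 scale (SE 0.42, adjusted p = 0.033 by limma) and by 3.12 against BA (SE 0.42, adjusted p = 0.11). That order is the one the column labels give for drained and infused arms, and it goes against the descriptions. A comparison of both fistula arms with Control does not turn on this.

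Column totals ran from 727435 to 982826 RPKM. The highest total was that of the BA column at 4 h, in which albumin (ALB) took 30.9% of the total against 5.60% to 13.4% in the other columns. The median gene lay between 8.68 and 14.25 RPKM and was highest in the 3 columns at 24 h (12.44 to 14.25), so values with every column rescaled to the same median gene are given beside the deposited ones where they matter. Of 6 hepatocyte markers 5 were found, all above 0 in every column, with APOA1 not found. Markers of pancreatic acinar cells summed to 130 RPKM in the BF column at 12 h and to 5.10 to 23.0 in the others. The 23.0 of the Control column at 0 h was mostly CELA1 (22.5), which was at 6.03 in the BF column at 12 h. CTRB1 was at 84.7 RPKM in the BF column at 12 h and at 0.57 or less elsewhere. The spread between rats and the number of reads behind a value are unknown.

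By mean level over the 12 columns, TF stood at 11266 RPKM, HAMP at 1923, CP at 1628, FTH1 at 550, TFR2 at 213, SLC39A14 at 155, HFE2 at 38.8, SLC40A1 at 38.7 and HFE at 20.5. The lowest TF column (7675 RPKM) lay above the highest HAMP column (4782), and the ranges of CP and FTH1 and of FTH1 and TFR2 did not meet either. The other neighbours in this order overlapped over the 12 columns: HAMP with CP, TFR2 with SLC39A14, SLC39A14 with HFE2, and HFE2, SLC40A1 and HFE with each other. Relative to its level, HFE2 ranged most widely, with its highest column 16.0 times its lowest, followed by HAMP (10.8 times) and SLC39A14 (4.91 times). FTH1 had the narrowest range, 1.47 times.

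At 4 h after PH, hepcidin and the iron importer SLC39A14 were higher, and hemojuvelin, ferroportin and HFE were lower, in each of the 3 arms. The fitted change over the 3 arms was 4.15-fold up for HAMP and 2.53-fold up for SLC39A14. HFE2 fell to 0.166 of its level at 0 h, SLC40A1 to 0.398 and HFE to 0.640. Transferrin, ceruloplasmin, ferritin heavy chain and TFR2 did not pass the test. The test was limma on log2(RPKM + 1) with arm and time as terms, so that the 3 arms served as replicates of a time. It measures how alike the arms moved and not the spread between rats.

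**Figure D1:**
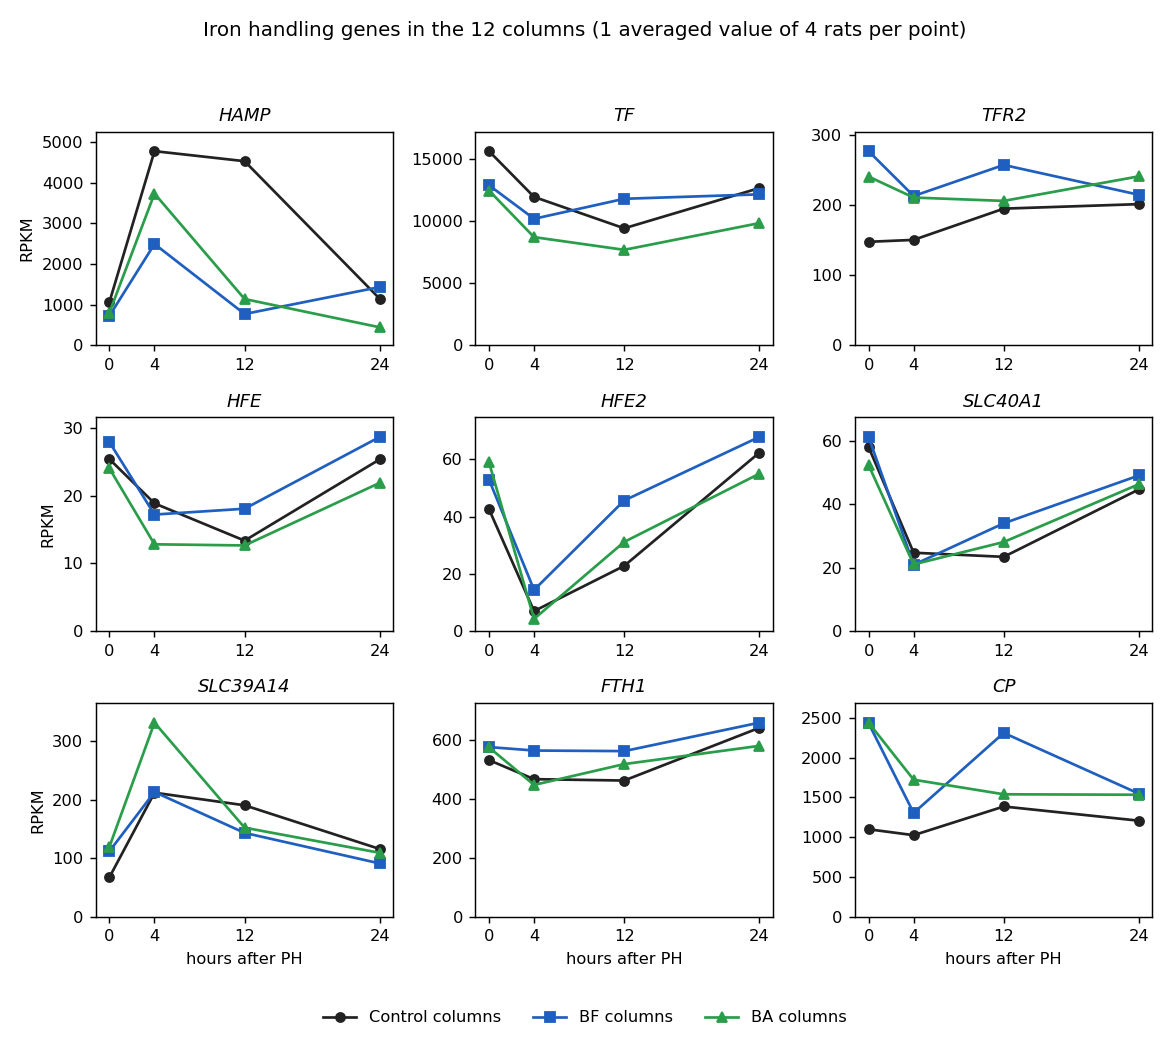
Levels of the 9 iron handling genes in RPKM (y axis, linear from 0) against hours after PH (x axis) in the Control, BF and BA columns. Each point is 1 column, an average over 4 rats without error. HAMP and SLC39A14 peaked at 4 h in all 3 arms, HFE2 and SLC40A1 were lower at 4 h than at 0 h in all 3, and HAMP at 12 h was at 4535 RPKM in Control against 771 in BF and 1139 in BA.

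Hepcidin is described first, with its promoter. A pair of sequence motifs ties the gene to its known regulators, a STAT site (searched as TTCNNNGAA) and a BMP response element (GGCGCC), and both stood within 250 bases before the rat gene's start. The stretch below is on the minus strand at chr1:95300272-95300521 of GRCr8, from RefSeq, and capitals mark both motifs.
HAMP: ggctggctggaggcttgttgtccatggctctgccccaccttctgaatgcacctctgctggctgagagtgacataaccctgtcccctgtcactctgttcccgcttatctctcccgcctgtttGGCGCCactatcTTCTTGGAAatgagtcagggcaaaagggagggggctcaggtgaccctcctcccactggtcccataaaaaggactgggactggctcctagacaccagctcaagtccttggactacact
The BMP element lay 129 to 124 bases and the STAT match 117 to 109 bases before the start. Of 33469 rat promoters of the same length, searched on both strands, 7.67% held the STAT motif and 8.69% the BMP element. A match of letters is a description and not a shown site.

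HAMP stood at 1066 RPKM in the Control column at 0 h, 4782 at 4 h, 4535 at 12 h and 1144 at 24 h. In the BF columns it was 725.5, 2495, 771 and 1435 RPKM at these times. In the BA columns it was 806, 3737, 1139 and 442 RPKM. At 4 h every column was above all 3 columns at 0 h. At 12 h the Control column was still near its 4 h level, whereas the BF column was within and the BA column just above the range of the 0 h columns. The fitted difference of 4 h against 0 h was 2.05 on the log2 scale (SE 0.50, 95% CI 0.94 to 3.17, adjusted p = 0.0093 by limma over all 8459 genes), and 2.19 with columns rescaled. Single arms gave 1.78 to 2.21. The call was lost without the BA arm, where the difference was 1.97 and the adjusted p 0.064. Without only the BA column at 4 h the difference was 1.75 with an adjusted p of 0.047.

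The later times of HAMP did not pass. At 12 h the fitted difference from 0 h was 0.89 (SE 0.50, adjusted p = 0.20 by limma), with single arms at 2.09 in Control and 0.09 in BF. At 24 h it was 0.07 (SE 0.50, adjusted p = 0.92), and -0.26 with columns rescaled. The ratio of HAMP to SLC40A1 in RPKM, hormone to target, was 18.4 at 0 h and 194 at 4 h in Control, 11.8 and 119 in BF, and 15.4 and 178 in BA. At 12 h it was 194 in Control, 22.7 in BF and 40.5 in BA.

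Among the genes that act upstream of hepcidin, hemojuvelin moved most. HFE2 stood at 42.6, 6.97, 22.8 and 62.4 RPKM in Control at 0, 4, 12 and 24 h. It was 53.0, 14.4, 45.7 and 67.9 RPKM in BF and 59.0, 4.25, 31.2 and 55.0 RPKM in BA. The 3 columns at 4 h were the lowest of all 12 and did not overlap with any other time. At 4 h against 0 h HFE2 fell by 2.59 on the log2 scale (SE 0.28, 95% CI -3.21 to -1.97, adjusted p = 0.00037 by limma), by a factor of 6.11 in Control, 3.68 in BF and 13.9 in BA. Without the BA column at 4 h the fall was 2.23. By 12 h the difference was -0.66 (SE 0.28, adjusted p = 0.097), and with the BA column at 4 h left out it passed at the same size (adjusted p = 0.031). At 24 h it was 0.26 (adjusted p = 0.48).

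The promoter of HFE2 (Hjv in RefSeq) is shown for comparison. It also held a STAT match, in capitals, 148 to 140 bases before the start. The stretch lies on the plus strand at chr2:186754551-186754800 of GRCr8.
HFE2: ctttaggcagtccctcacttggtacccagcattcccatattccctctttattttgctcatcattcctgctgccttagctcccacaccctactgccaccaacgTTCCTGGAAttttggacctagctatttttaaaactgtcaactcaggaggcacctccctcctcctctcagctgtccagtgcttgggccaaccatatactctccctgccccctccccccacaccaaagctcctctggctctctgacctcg
No GGCGCC was found in this window.

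HFE, a membrane protein related to MHC class I that binds transferrin receptors, had the lowest level of the 9 genes. Control columns held 25.4, 18.8, 13.3 and 25.3 RPKM in order of time, BF columns 27.9, 17.2, 18.1 and 28.7, and BA columns 24.0, 12.8, 12.6 and 21.9. Every column at 4 h and 12 h was below every column at 0 h and 24 h. The difference from 0 h was -0.64 at 4 h (SE 0.12, adjusted p = 0.0027 by limma) and -0.78 at 12 h (SE 0.12, adjusted p = 0.0020). At 24 h it was -0.03 (SE 0.12, adjusted p = 0.86), and -0.35 with columns rescaled (adjusted p = 0.033).

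TFR2, a transferrin receptor and like HFE part of iron sensing in hepatocytes, did not move in common with time. It stood at 148, 150, 195 and 201 RPKM in Control, at 277, 213, 257 and 215 in BF and at 241, 211, 206 and 241 in BA. Its differences from 0 h were -0.18 at 4 h, 0.02 at 12 h and 0.03 at 24 h (SE 0.16, lowest adjusted p = 0.37). The 95% CI at 4 h ran from -0.53 to 0.17. Its columns differed more by arm, as described below.

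Ferroportin fell in parallel in the 3 arms. SLC40A1 was at 58.1, 24.7, 23.4 and 44.7 RPKM in Control, at 61.3, 20.9, 34.0 and 49.1 in BF and at 52.4, 21.0, 28.1 and 46.3 in BA. All columns at 4 h and 12 h lay below all columns at 24 h, and these below all columns at 0 h. The fitted difference from 0 h was -1.33 at 4 h (SE 0.13, 95% CI -1.63 to -1.03, adjusted p = 0.00031 by limma) and -0.99 at 12 h (SE 0.13, adjusted p = 0.0013). At 24 h it was -0.29 (SE 0.13, adjusted p = 0.12), and -0.61 with columns rescaled (adjusted p = 0.010). Kupffer cells, the liver's macrophages, also make ferroportin. Their 7 markers, all found and none at 0, summed to 219 to 269 RPKM at 0 h and 212 to 221 at 4 h. The sums were 163 to 180 at 12 h and 228 to 252 at 24 h. CLEC4F, the largest marker, went from 112 to 105 RPKM between 0 and 4 h (Control), 105 to 113 (BF) and 85.3 to 109 (BA). Every arm had less CD68, CSF1R, EMR1 and VSIG4 at 4 h than at 0 h, and more CD163. MARCO was lower in Control and BA and slightly higher in BF. The part of these cells in the change of SLC40A1 was not tested. In whole liver, fewer cells of a type and less RNA per cell cannot be told apart.

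The SLC40A1 promoter is shown as an example with none of the 4 motifs searched. The TFR2 promoter, not shown, held none of them either. The motifs were the STAT and BMP motifs, a TATA box (TATAAA, in 12.9% of promoters) and the antioxidant response element (TGANNNNGC, in 34.7%). The SLC40A1 stretch lies on the minus strand at chr9:55543461-55543710 of GRCr8. Its GC content is 74.0%, against 56.8% for HAMP and 53.2% for HFE2.
SLC40A1: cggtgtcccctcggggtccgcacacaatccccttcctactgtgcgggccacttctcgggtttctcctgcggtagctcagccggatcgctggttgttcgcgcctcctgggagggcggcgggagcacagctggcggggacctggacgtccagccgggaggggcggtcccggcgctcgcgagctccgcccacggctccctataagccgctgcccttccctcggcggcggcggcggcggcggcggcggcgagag
Promoters were found in the RefSeq table for 6 of the 9 genes, and not for HFE, SLC39A14 and FTH1. In the TF promoter TATAAA lay 52 to 47 bases before the start, and in the CP promoter 27 to 22 bases, with an overlapping match on the other strand.

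SLC39A14 encodes ZIP14, a carrier that takes up iron not bound to transferrin, zinc and manganese. Its columns held 67.6, 212, 191 and 116 RPKM in Control, 112, 213, 143 and 91.2 in BF and 120, 332, 152 and 109 in BA. The 3 columns at 4 h were the highest of the 12, and the Control column at 0 h was the lowest. It rose by 1.34 on the log2 scale at 4 h (SE 0.23, 95% CI 0.82 to 1.86, adjusted p = 0.0021 by limma), with single arms between 0.92 and 1.64. At 12 h the difference was 0.73 (SE 0.23, adjusted p = 0.039). That call was lost without any 1 of the arms, with adjusted p = 0.26 without Control (difference 0.35), 0.095 without BF and 0.067 without BA, and without the BF column at 12 h (adjusted p = 0.075).

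The storage and plasma proteins changed less. FTH1 lay between 449 and 660 RPKM in all 12 columns, with differences from 0 h of -0.19 at 4 h, -0.13 at 12 h and 0.16 at 24 h (SE 0.11, lowest adjusted p = 0.20). Ferritin genes have near-identical copies in the rat genome, so that their reads may be split. TF, which carries iron in plasma, was at 15612, 11931, 9406 and 12642 RPKM in Control, at 12870.1, 10170.3, 11780.2 and 12137 in BF and at 12444, 8697, 7675 and 9824 in BA. Its differences from 0 h were -0.41 at 4 h (SE 0.18, adjusted p = 0.081 by limma), -0.52 at 12 h (adjusted p = 0.0503) and -0.24 at 24 h (adjusted p = 0.30), each with the same sign in 3 of 3 arms. TF passed at 4 h and 12 h when the spread was shrunk without a trend (adjusted p = 0.026 and 0.015). CP, the copper ferroxidase that oxidizes iron for loading onto transferrin, differed from 0 h by -0.50 at 4 h (SE 0.22, adjusted p = 0.090), -0.13 at 12 h and -0.40 at 24 h.

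Of the 9 genes, 5 passed at 4 h, with 2 higher and 3 lower, where 45.3% of all genes tested passed (12.9% higher and 32.4% lower). The count was also 5 without the BA column at 4 h and without the BF column at 12 h. The median difference was -0.41 over the 9 genes and -0.20 over all genes. At 12 h, 3 of 9 passed, with 1 higher and 2 lower, against 31.5% of all genes (9.03% higher and 22.5% lower), and the medians were -0.13 and -0.12. At 24 h none of the 9 passed in limma, against 36.1% of all genes (30.6% higher and 5.54% lower). At an unadjusted p under 0.05 the count was also 0, against 4024 of the 8459 genes. With columns rescaled, 3 of the 9 were lower at 24 h, namely TF, HFE and SLC40A1, where 1448 of 8459 genes were lower and 874 higher. The 24 h count thus depends on the scaling: over all genes 84.7% of the calls were higher as deposited and 37.6% with columns rescaled. At 4 h the split was 28.4% and 41.9%, and at 12 h 28.7% and 49.1%.

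**Figure D2:**
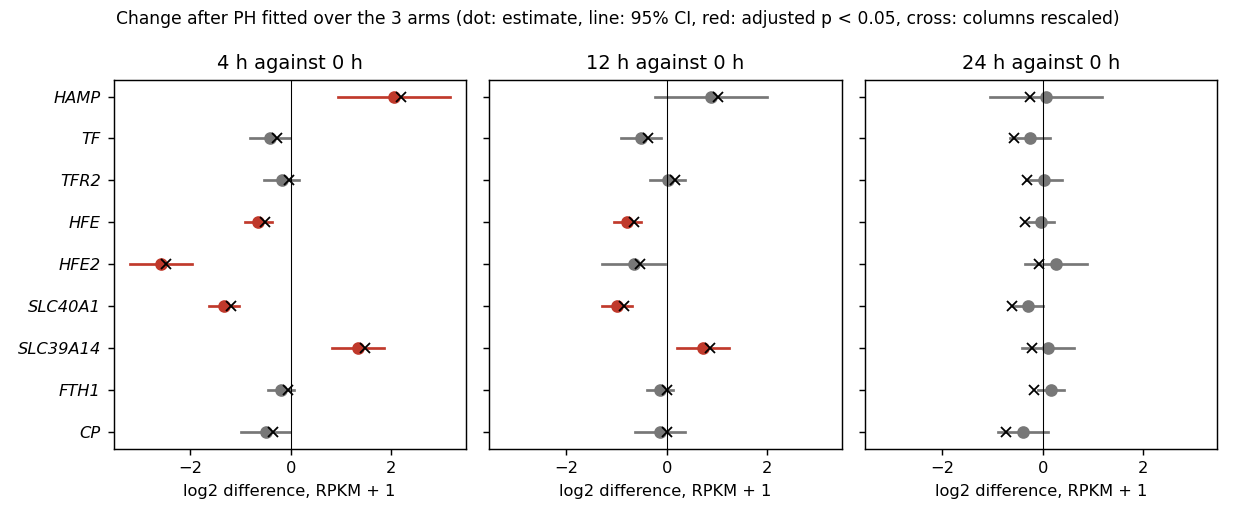
Fitted log2 difference from 0 h (x axis, on RPKM + 1) for each of the 9 genes (y axis) at 4, 12 and 24 h. Dots are estimates over the 3 arms with 95% CI, red where the adjusted p was below 0.05, and crosses are estimates with columns rescaled to the same median gene. At 4 h, HAMP (2.05) and SLC39A14 (1.34) lay above 0 and HFE2 (-2.59), SLC40A1 (-1.33) and HFE (-0.64) below, and at 24 h every cross lay below 0.

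The second question was whether the fistula arms differed from Control. Hepcidin was lower in BA than in Control at all 4 times and lower in BF at 3 of 4, while TFR2 and CP were higher in both fistula arms at all 4 times. None of the 9 genes passed the test over the 4 times in any of the 3 comparisons of arms, which limma called for 0.804% of all genes (BF against Control), 0.0709% (BA against Control) and 0.0118% (BF against BA). At an unadjusted p under 0.05 the 9 genes counted 3, 4 and 2 in these comparisons. Of all 8459 genes tested, 1852, 1919 and 661 had an unadjusted p under 0.05. BF and BA share the Control columns, so their differences from Control are not independent. The count was also 0 in each of the alternative fits of these comparisons.

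Over the 4 times HAMP differed from Control by -0.93 in BF (SE 0.43, 95% CI -1.90 to 0.03, adjusted p = 0.24 by limma) and by -1.03 in BA (SE 0.43, 95% CI -2.00 to -0.06, adjusted p = 0.20). The BF difference rested largely on 12 h, and it was -0.39 without that time (adjusted p = 0.62) and -0.55 without the BF column at 12 h (adjusted p = 0.51), in which the pancreatic markers summed highest, and their part in it was not tested. Between BF and BA the difference was 0.10, with a 95% CI of -0.87 to 1.07 that leaves room for a difference in either direction. TFR2 differed from Control by 0.47 in BF (SE 0.13, adjusted p = 0.12) and by 0.38 in BA (SE 0.13, adjusted p = 0.16). CP differed by 0.65 in BF (SE 0.19, adjusted p = 0.13) and by 0.60 in BA (SE 0.19, adjusted p = 0.14). TFR2 was lowest in Control at each time. HFE2 differed from Control by 0.59 in BF (adjusted p = 0.20) and by 0.03 in BA, and HFE was higher in BF than in BA at 4 of 4 times, by 0.37 (SE 0.10, adjusted p = 0.45).

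**Figure D3:**
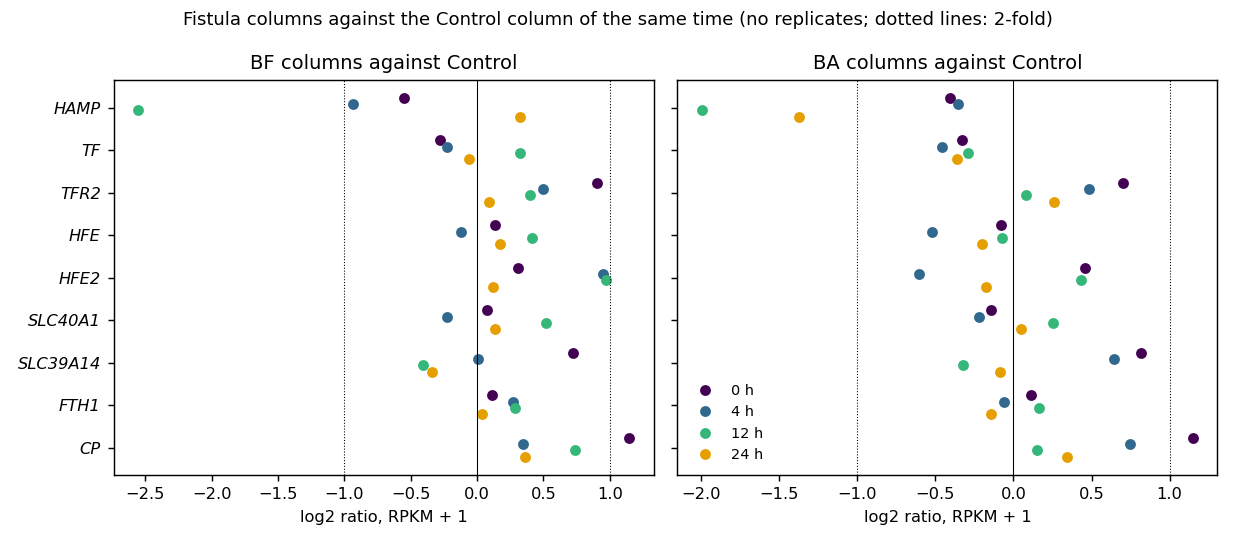
Log2 ratio of RPKM + 1 (x axis) of each BF column (left) and BA column (right) to the Control column of the same time, for the 9 genes (y axis), with times by colour. Each dot compares single columns without replicates, and dotted lines mark 2-fold. HAMP at 12 h lay at -2.56 for BF and -1.99 for BA, and CP at 0 h at 1.14 and 1.15.

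Within single times there is no test, and a 2-fold difference on the log2(RPKM + 1) scale was taken as the mark. At 0 h, before regrowth, CP was the only one of the 9 genes past it. The Control, BF and BA columns held 1099, 2432 and 2438 RPKM of CP. It was 2.21-fold and 2.22-fold higher in the fistula columns, where 1.73% and 1.87% of all genes were as much higher. Later CP held 1025, 1385 and 1207 RPKM in Control at 4, 12 and 24 h, 1304, 2310.0 and 1546 in BF, and 1722, 1539 and 1533 in BA. TFR2 at 0 h was 1.88-fold (BF) and 1.63-fold (BA) its Control level, and SLC39A14 1.66-fold and 1.77-fold. The 4 neutrophil markers summed to 3.11 RPKM in Control at 0 h, 22.8 in BF and 22.4 in BA, and their part in these differences was not tested. Most of these sums was S100A8 and S100A9, at 0.63 and 2.25 RPKM in Control at 0 h, 8.58 and 13.5 in BF and 9.28 and 12.6 in BA. CSF3R was at 0.96 RPKM or less in every column, and MPO, whose protein is found in neutrophil granules, at 0.07 or less.

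At 4 h none of the 9 genes was past 2-fold in BF against Control, where 4.35% of all genes were, nor in BA against Control (7.28%). At 24 h none was past it in BF against Control (2.08%). HAMP at 12 h was past it in both fistula arms, 5.89-fold lower in BF and 3.98-fold lower in BA, where 1.68% and 1.12% of all genes were as much lower. At 24 h it was 2.59-fold lower in BA than in Control (1.32% of genes as much lower), while in BF it was 1435 RPKM against 1144 in Control. Between the fistula arms HAMP at 24 h was 3.24-fold higher in BF (0.887% of genes as much higher), and HFE2 at 4 h was 3.38-fold higher in BF (2.39%). HFE2 at 4 h and 12 h was also about at the mark in BF against Control, 2.06-fold and 2.00-fold higher by RPKM.

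The other genes of iron handling were taken from 9 lists with 77 genes, of which 67 were found and 62 fitted. At 4 h, 10 were higher, 24 lower and 28 not called, with a median of -0.30 against -0.20 over all genes, of which 12.9% were higher and 32.4% lower. At 12 h, 6 were higher and 18 lower, with a median of -0.21 against -0.12 over all genes (9.03% higher, 22.5% lower). Without the BA column at 4 h, 8 were higher and 17 lower at 4 h, where 2817 of 8459 genes were called in either direction. Without the BF column at 12 h, 3 were higher and 17 lower at 12 h, where 2016 of 8459 were called. At 24 h, 11 were higher and 5 lower as deposited (30.6% and 5.54% of all genes). With columns rescaled 2 were higher and 17 lower, where 874 of 8459 genes were higher and 1448 lower. None was called between arms.

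In the IL-6 and STAT3 list 4 of 8 fitted genes rose at 4 h and 2 fell, where 12.9% of all genes rose and 32.4% fell. SOCS3, a feedback inhibitor that STAT3 induces, rose by 2.23 on the log2 scale (SE 0.22, adjusted p = 0.00031 by limma), from 11.3 to 65.1 RPKM in Control, 12.2 to 53.7 in BF and 17.4 to 85.1 in BA. STAT3 itself rose by 1.68 (SE 0.30, adjusted p = 0.0025), from 33.5 to 198 RPKM in Control, 79.8 to 192 in BF and 91.9 to 220 in BA. Its level at 0 h was thus lower in Control than in the fistula arms, and without Control its rise was 1.25. JAK2 rose by 0.86 and IL6RA by 0.46. CEBPA, a liver transcription factor known to support hepcidin transcription, fell by 1.49 (SE 0.14, adjusted p = 0.00027), with 35.4 RPKM in Control, 30.8 in BF and 30.5 in BA at 4 h against 111, 79.8 and 87.6 at 0 h. JAK1 fell by 0.59. At 12 h the Control, BF and BA columns held 57.0, 28.9 and 36.3 RPKM of SOCS3 and 139, 97.9 and 147 RPKM of STAT3. The transcript of IL6 itself was at 0.23 RPKM or less in every column.

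The BMP and SMAD list had 3 genes higher, 6 lower and 9 not called at 4 h, so that 9 of 18 were called where 45.3% of all genes were. ID1, a target of BMP signalling, rose by 1.42 (SE 0.23, adjusted p = 0.0015 by limma). It stood at 3.53 RPKM at 0 h and 16.6 at 4 h in Control, at 3.48 and 9.06 in BF and at 4.67 and 11.5 in BA. SMAD7, an inhibitory SMAD that is also a BMP target, fell by 0.55 (SE 0.13, adjusted p = 0.0073). BMP6, the ligand that endothelial cells supply, fell by 0.55 (SE 0.16, adjusted p = 0.018) from no more than 1.73 RPKM. FURIN, a protease that cuts hemojuvelin, fell by 0.88 (SE 0.12, adjusted p = 0.00093). TMPRSS6, the membrane protease that removes hemojuvelin and so lowers hepcidin, fell by 0.48 at 4 h (SE 0.15, adjusted p = 0.026) and by 0.79 at 12 h (SE 0.15, adjusted p = 0.0048), when the Control, BF and BA columns held 91.5, 132 and 107 RPKM.

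**Figure D4:**
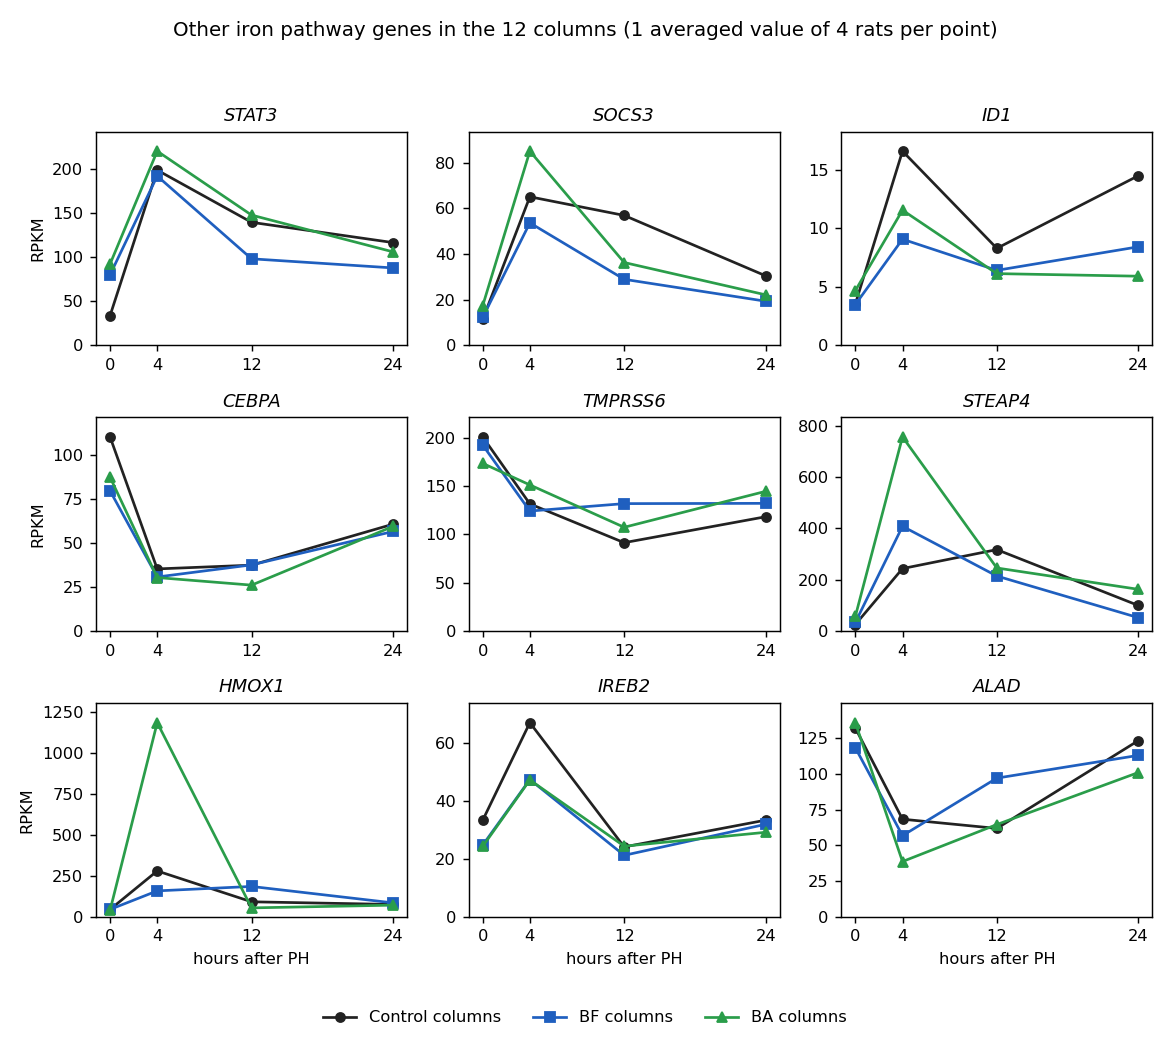
Levels in RPKM (y axis, linear from 0) of 9 further iron pathway genes against hours after PH (x axis) in the Control, BF and BA columns, 1 average over 4 rats per point. STAT3, SOCS3 and STEAP4 rose at 4 h and CEBPA and ALAD fell in all 3 arms, and HMOX1 reached 1182 RPKM in the BA column at 4 h against 279 in Control and 158 in BF.

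Genes that move iron into the cytosol split in direction. STEAP4, a reductase of iron and copper, rose by 3.49 at 4 h (SE 0.36, adjusted p = 0.00033 by limma), from 25.4 to 243 RPKM in Control, 33.7 to 408 in BF and 57.1 to 757 in BA. STEAP3, the endosomal ferrireductase, fell by 1.26 (SE 0.19, adjusted p = 0.0012). SLC39A8 (ZIP8), the nearest relative of SLC39A14, fell by 0.87 (SE 0.12, adjusted p = 0.00071), where SLC39A14 rose. IREB2, which encodes iron regulatory protein 2, rose by 0.94 (SE 0.12, adjusted p = 0.00062), the only one of its 3-gene list that was called. FTL, the ferritin light chain, fell by 0.46 (SE 0.12, adjusted p = 0.012) and was 0.37 above 0 h at 24 h. PCBP2, a chaperone that carries iron to ferritin, rose by 0.35 at 24 h (SE 0.11, adjusted p = 0.036). With columns rescaled these 24 h differences were 0.04 for FTL and 0.03 for PCBP2.

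Heme genes moved in both directions. HMOX1, heme oxygenase 1, which frees iron from heme, rose by 3.09 at 4 h (SE 0.66, adjusted p = 0.0053 by limma), with 1182 RPKM in the BA column, where albumin also stood apart, 279 in Control and 158 in BF. Without that BA column the rise was 2.09 (adjusted p = 0.0068). In the list of heme synthesis 5 of 8 fitted genes fell at 4 h (32.4% of all genes) and none rose (12.9%). ALAD, its second enzyme, fell by 1.26 (SE 0.20, adjusted p = 0.0015) and FECH, which inserts the iron, by 0.61 (SE 0.16, adjusted p = 0.015). ALAS1, also on this list, was not found, so its change is unknown. ALAS2 was fitted but stood at 1.8 RPKM or less in every column. HPX, the heme scavenger hemopexin, rose by 1.13 at 12 h (SE 0.37, adjusted p = 0.043). It had stood at 6349 RPKM in Control at 0 h but at 26231 in BF and 26538 in BA. LCN2 was in the list of heme scavenging and breakdown, although it binds the iron carriers of bacteria. It rose by 4.32 at 12 h (SE 1.30, adjusted p = 0.033), from 3.03 to 2220 RPKM in Control, 808 to 4229 in BF and 1388 to 3847 in BA.

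Among carriers of heme and mitochondrial iron, at 4 h FLVCR2 fell by 1.01 (SE 0.15, adjusted p = 0.0013 by limma), SLC48A1 by 0.65 (SE 0.08, adjusted p = 0.00064) and ABCB10 by 0.44 (SE 0.16, adjusted p = 0.047). FLVCR2 stood at 2.60 to 4.37 RPKM at 0 h, at only 0.87 to 1.28 at 4 h and at 5.45 to 7.05 at 24 h. As deposited, FLVCR2 and SLC48A1 were called higher at 24 h than at 0 h, where 30.6% of all genes were. SLC25A37 (mitoferrin 1) fell by 0.72 at 12 h (SE 0.17, adjusted p = 0.012). At 24 h SLC25A28 (mitoferrin 2) rose by 0.84 (SE 0.11, adjusted p = 0.00098) and SLC46A1, a folate and heme carrier, fell by 0.76 (SE 0.19, adjusted p = 0.012). Both kept their sign with columns rescaled, at 0.53 and -1.08.

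Of the 24 genes that the naming rule took from the lists, 15 were called in every fit with a column or an arm left out, and 9 were not. HPX lost its call in 5 of these fits, and its difference was 0.54 without Control (adjusted p = 0.13 by limma). LCN2 lost it without BF (adjusted p = 0.10), without BA (0.053) and without the BF column at 12 h (0.062), and without Control its rise was 1.93 in place of 4.32 (0.0091). ABCB10 also lost it in 5 fits (adjusted p = 0.056 to 0.30), with a difference of -0.25 without the BA column at 4 h (adjusted p = 0.19). FTL and PCBP2 lost it without each arm in turn, with adjusted p-values of 0.051 to 0.079 and 0.084 to 0.17. TMPRSS6 lost it without Control (0.082), FECH without BF (0.11) and without the BA column at 4 h (0.067), SLC25A37 without Control (0.12) and without BA (0.075), and SLC46A1 without Control (0.11) and without BF (0.11).

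**Figure D5:**
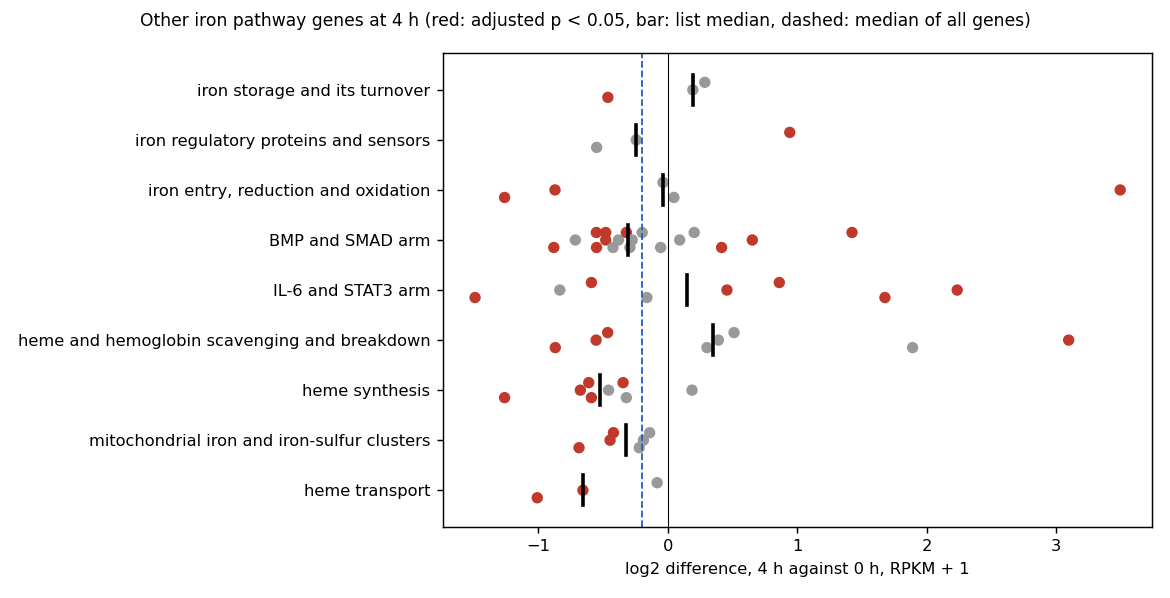
Fitted log2 difference at 4 h against 0 h (x axis, on RPKM + 1) of the 62 further iron genes by list (y axis). Each dot is a gene, red where the adjusted p was below 0.05. Black bars are list medians and the dashed line is the median of all genes (-0.20). The heme synthesis list had 5 genes lower and 0 higher, and the IL-6 and STAT3 list 4 higher and 2 lower, where 12.9% of all genes were higher and 32.4% lower.

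By Pearson r of log2(RPKM + 1) over the 12 columns, the 5 genes nearest to HAMP were ST3GAL1 (0.90), a sialyltransferase, TAF1A (0.90), RAB21 (0.90), SMUG1 (0.90) and MBD1 (0.88). ST3GAL1 stood at 98.0 RPKM at 4 h and 82.9 at 12 h in Control, against 57.5 at 0 h, and at 63.1 (BF) and 65.4 (BA) at 12 h. The 5 nearest to SLC40A1 were RGD1304579, ST3GAL6, EEF2K, a row named 8-Mar and MBL2, each with r = 0.98. The name 8-Mar is a gene symbol turned into a date by a spreadsheet, and the row's description names a membrane-associated ring finger gene. MBL2, the liver's mannose-binding lectin, stood at 245 RPKM at 0 h and 87.0 at 4 h in Control. These correlations share their columns and their scaling and are given as descriptions.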

How the data were processed

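Liver RNA of rats in 12 combinations of arm and time was sequenced, and the authors deposited 1 table of RPKM values with 1 column for each, averaged over 2 runs (1 rat, and combined RNA of 3 rats). The submitters' processing notes name CASAVA, Bowtie 0.12.2 and the builds rn4 and mm8, without their roles. The annotation and the weighting of the runs were not given in the sources used here. RPKM divides by transcript length and library total, so an abundant gene lowers the rest.

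Values were fitted as log2(RPKM + 1) with limma 3.58.1 in R 4.3.3 (arm and time as terms, variance trend, 6 residual degrees of freedom) over the 8459 genes whose mean reached 1 RPKM, and p-values were adjusted by Benjamini-Hochberg over all of them, with 0.05 as the threshold. Columns stood in for replicates, so p-values say how alike arms or times moved. Groups followed the column labels. Single columns were compared without a test, at 2-fold. On simulated data with 200 changed genes, the fit of 4 h against 0 h over 8459 genes found 39% of 1.5-fold, 79% of 2-fold and 94% of 4-fold changes. The simulated noise was independent between genes, and in the data 45.3% of genes were called at 4 h. These shares therefore need not hold for the data. Python 3.11.15, numpy 2.4.6, pandas 2.3.3 and matplotlib 3.10.9 were used. Alternatives were another pseudocount (0.1 RPKM), no filter, columns rescaled to the same median gene, no trend, and leaving out columns, arms or times. Leaving out the BA column at 4 h was chosen after the data were seen. The 9 genes and the lists were chosen with earlier results of these data known. From each list up to 3 called genes with the largest change were named (1 of them is not reported here), and further genes of the lists (JAK1, JAK2, IL6RA, SMAD7, BMP6, IL6) were named after their values were seen. Promoters came from RefSeq (GRCr8).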

Additional observations from a re-analysis of the deposited data

Results flagged for a closer look

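In 4 cases a gene moved one way in the single pair of columns of an arm and the opposite way in another arm, by over 0.25 on the log2 scale each. With 1 column for each arm and time, the differences were not tested. HAMP at 24 h against 0 h was 0.98 in BF and -0.86 in BA, a difference of 1.85. For TFR2 at 24 h against 0 h, Control gave 0.45 and BF -0.37, a difference of 0.81. For SLC39A14 at 24 h against 0 h, Control gave 0.77 and BF -0.29, a difference of 1.06. For CP at 12 h against 0 h, Control gave 0.33 and BA -0.66, a difference of 1.00. In the cases of TFR2, SLC39A14 and CP the Control column at 0 h was the lowest of the 3 at that time.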

How the results depend on the processing

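The fit compared times within arms and arms within times. No paired analysis was possible because no arm and time has a second column, so there is no replicate number to add as a block. Over the alternatives run, 468 values of single genes stayed on the same side of 0 and of the threshold, 6 lost the call, 8 gained one and 31 changed sign, all 31 in differences that had not passed. With columns rescaled, 3 of the 9 genes passed at 24 h in place of 0, while over all genes 2322 passed in place of 3056. The count past 2-fold in BF against Control, also with columns rescaled, was 2 at 0 h and 2 at 12 h in place of 1. At 4 h it was 1 in place of 0, as it was with a pseudocount of 0.1 RPKM. Leaving out an arm gave 4 to 5 genes at 4 h and 2 at 12 h, where 2155 to 2499 and 789 to 1821 of all genes passed. The BA column at 4 h and the BF column at 12 h changed no count of the 9 genes by over 1.5 times.

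Sign changes with columns rescaled gave 0.012 for FTH1 and 0.0060 for CP at 12 h, and at 24 h -0.26 for HAMP, -0.31 for TFR2, -0.064 for HFE2, -0.22 for SLC39A14 and -0.18 for FTH1. Against Control they gave 0.069 for TF and 0.12 for SLC39A14 in BF, and 0.13 for SLC40A1 in BA. Without the BF column at 12 h, TFR2 at 12 h was -0.011, SLC39A14 in BF against Control 0.032 and CP in BF against BA -0.056.

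Leaving out 1 arm in turn, the difference from 0 h ran at 12 h from -0.16 to 0.15 for TFR2 and from -0.37 to 0.13 for CP, and at 24 h from -0.38 to 0.54 for HAMP, -0.18 to 0.22 for TFR2, -0.065 to 0.018 for HFE and -0.21 to 0.32 for SLC39A14. Leaving out 1 time in turn, BF against Control ran from -0.19 to 0.012 for TF, -0.0073 to 0.24 for SLC40A1 and -0.25 to 0.13 for SLC39A14. BA against Control ran from -0.12 to 0.24 for HFE2, -0.11 to 0.053 for SLC40A1 and -0.031 to 0.072 for FTH1, and BF against BA from -0.43 to 0.33 for HAMP and -0.13 to 0.20 for CP. The causes of these changes were not tested.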
